A study of Mus musculus with 9 samples.

Results

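Honokiol-treated MUP-uPA livers were compared with wild-type livers on the 6 arrays of these groups, out of 9 arrays in the series, across 19572 probe sets with a gene symbol among 22206 tested. The HNK group held 3 livers of MUP-uPA mice injected with honokiol, a compound from magnolia bark, at 10 mg/kg 3 times per week from 32 weeks of age. The MUP group held 3 livers of MUP-uPA mice given vehicle, and the WT group held 3 livers of wild-type littermates given vehicle. MUP-uPA mice carry a urokinase transgene under the major urinary protein promoter, which is active in hepatocytes. The mice of every group were C57BL/6 males fed a high-fat diet from 6 weeks and killed at 40 weeks. RNA came from non-tumor tissue, and the MUP-uPA mice bore liver tumors. The WT livers had therefore had the same diet, and no lean liver is in the series. Values are log2 of the deposited intensities, 1 unit is a 2-fold difference, and n = 3 livers per group throughout.

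High-fat feeding loads hepatocytes with lipid, which they keep in droplets coated by perilipins and CIDE proteins, and which they burn through enzymes induced by PPAR-alpha. Urokinase made in the hepatocyte strains the endoplasmic reticulum, where the chaperone BiP and its partners fold secreted proteins. Around the hepatocytes lie sinusoidal endothelial cells and Kupffer cells, the resident macrophages of the liver, so whole-liver RNA mixes these cell types. In such bulk RNA, fewer cells of a type and less RNA per cell cannot be told apart.

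The tissue label was borne out by the hepatocyte markers: Alb, Ttr and Apoa1 lay between 19.48 and 19.93 on every array. Between HNK and WT, 11 of 12 hepatocyte markers were not called, like most probe sets, which does not bear on the tissue label. The array HNK 3 stood apart through skeletal muscle transcripts. The median of 28 skeletal muscle markers was 4.74 and 4.65 on HNK 1 and HNK 2 but 11.26 on HNK 3, against 4.62, 4.65 and 4.31 on the WT arrays. Each of the 28 markers was higher on HNK 3 than on HNK 1, HNK 2 and the WT arrays, and Myh2, a fast-fiber myosin, reached 16.51 there against 4.73 and 4.59 on the other HNK arrays. MUP 2 showed the same, with a median of 11.59 against 4.60 on both MUP 1 and MUP 3. On HNK 3 the markers made up 0.287% of the summed intensity, against 0.00177% on HNK 1 and on HNK 2 and between 0.00104% and 0.00125% on the WT arrays. None of the 28 was called by limma between HNK and WT (1 had an unadjusted p under 0.05), and their median log2 fold change of 2.55 was 0.24 without HNK 3. How far muscle RNA moved other values was not tested, so results are given without HNK 3 where its removal ended a call.

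**Figure D1:**
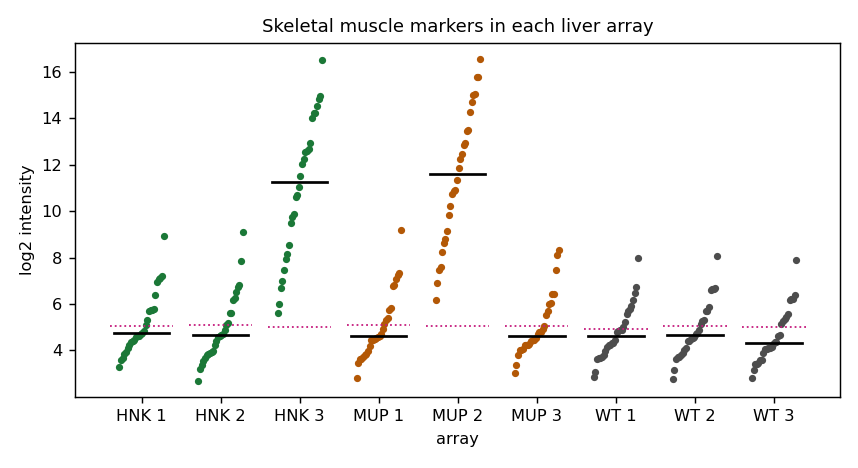
Log2 intensity of the 28 skeletal muscle markers (points, sorted within each array) on the HNK, MUP and WT arrays, with the median of the markers (black line) and of the negative control probe sets (dotted line). HNK 3 and MUP 2 have medians of 11.26 and 11.59, and the other 7 arrays lie between 4.31 and 4.74.

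In HNK livers, 192 probe sets with a symbol were higher and 279 were lower than in WT livers (limma on all 9 arrays, Benjamini-Hochberg adjusted p under 0.05, two-sided). Over all 22206 probe sets, 0.964% were called higher and 1.33% lower, and the median log2 fold change was -0.01. At least a 2-fold change was reached by 151 of the higher and 227 of the lower ones. The HNK and WT arrays did not overlap for any of the 471 called probe sets, as for 4067 probe sets with a symbol in all. Removal of HNK 3 left 79 higher and 149 lower, of which 76 and 132 were among those called with it. Removal of HNK 1 left 144 higher and 174 lower, and removal of HNK 2 left 127 higher and 142 lower. Removal of 1 WT array left 51, 90 or 45 higher and 76, 105 or 59 lower, for WT 1, WT 2 and WT 3.

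Set beside vehicle-treated MUP livers, part of the differences from wild type remained under honokiol. MUP livers had 284 probe sets with a symbol higher than WT livers and 440 lower, from the same WT arrays, so the 2 comparisons are not independent. Over all 22206 probe sets, 320 (1.44%) were called higher and 474 (2.13%) lower in MUP livers. Both comparisons called 146 probe sets higher, with a median log2 fold change of 1.40 in HNK and 1.41 in MUP over WT. Both called 217 lower, with medians of -1.3 and -1.40. No probe set was called in opposite directions. These shared counts were 73 higher and 120 lower without HNK 3, and 87 and 121 without HNK 2. They were 41, 77 and 37 higher and 62, 92 and 50 lower without WT 1, WT 2 and WT 3, and 92 were higher without MUP 3. Another 46 were called higher and 62 lower in HNK without being called in MUP, while 138 higher and 223 lower were called in MUP without being called in HNK. The counts called in HNK but not in MUP were 6 higher and 29 lower without HNK 3, and 24 and 26 without HNK 1. Without HNK 2, 40 were higher and 21 lower. They were 10, 13 and 8 higher and 14, 13 and 9 lower without WT 1, WT 2 and WT 3, but 83, 92 and 71 higher and 114, 146 and 94 lower without MUP 1, MUP 2 and MUP 3. The 361 called in MUP but not in HNK became 143, 198 and 160 without WT 1, WT 2 and WT 3, 172, 235 and 144 without MUP 1, MUP 2 and MUP 3, and 624 without HNK 2.

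**Figure D2:**
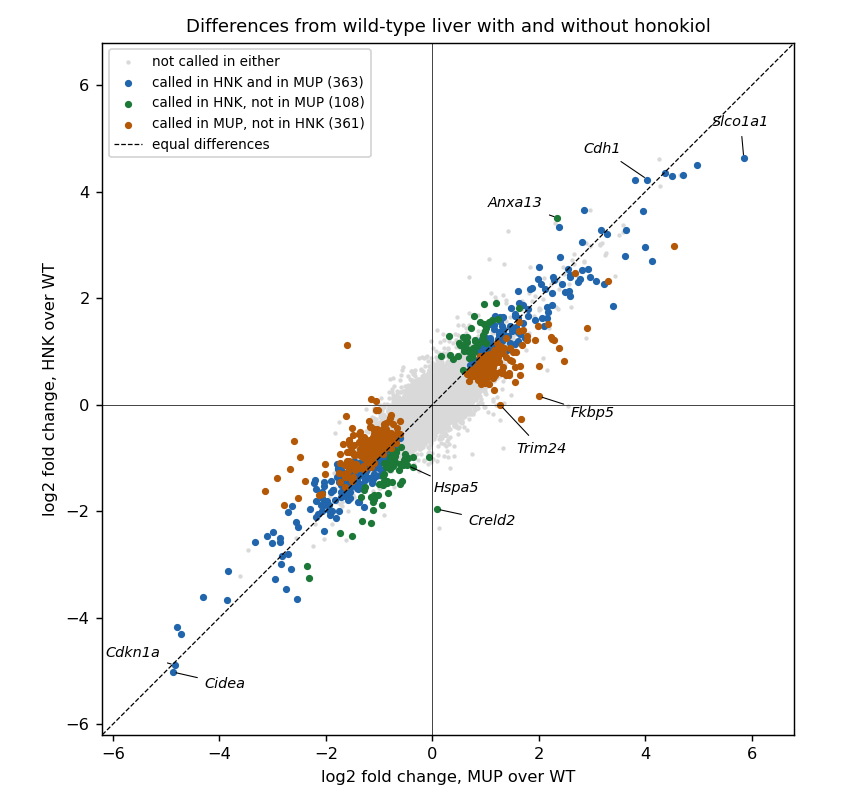
Log2 fold change over WT in HNK livers (vertical) and in MUP livers (horizontal) for each probe set with a gene symbol, colored by the comparison in which it was called, with the line of equal differences dashed. Both axes use the same WT arrays, and 146 probe sets were called higher and 217 lower in both, 108 in HNK but not in MUP, and 361 in MUP but not in HNK.

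A call in 1 comparison and not in the other is no test of their difference, which is the direct comparison of HNK with MUP livers. There no probe set with a symbol passed limma's adjusted threshold, while 407 were higher and 443 lower at an unadjusted p under 0.05. The methods' t-test gave 1 higher and 0 lower after adjustment, and 360 higher and 427 lower before it. Among the probe sets called in HNK but not in MUP, 46 of 46 higher ones and 61 of 62 lower ones had the same sign in MUP, with median MUP log2 fold changes of 0.76 and -0.80. Within that set, 40 of the higher and 56 of the lower ones reached an unadjusted p under 0.05 in MUP. The set was picked by its distance from the same WT arrays, which favors a shared sign, so these counts are no test of agreement. The 361 called in MUP and not in HNK had median HNK log2 fold changes of 0.73 for the higher and -0.75 for the lower ones. Some genes below were named for a call in 1 comparison and a log2 fold change under 0.5 in the other. These include Creld2, Hspa5, Slc35d1, Fkbp5, Trim24 and Pcdh17. That rule favors a wide gap between HNK and MUP livers, so intervals and unadjusted p-values for their gap are no test of it. 

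The circadian clock is a loop in which BMAL1, the product of Arntl, and its partners CLOCK and NPAS2 drive their own repressors through E-boxes, and DBP and its relatives act on D-boxes. Of 14 clock output genes, 4 were higher in HNK livers and 0 lower, with a median log2 fold change of 0.97. Leaving out WT 3 left 1 of the 4 and leaving out WT 1 left 2. Of 6 genes of the opposite phase, 2 were lower. Dbp, a transcription factor that peaks opposite to Arntl, had 15.05, 15.23 and 15.25 in HNK livers and 15.11, 15.40 and 15.10 in MUP livers, against 9.14, 13.07 and 10.27 in WT livers. The 6 transgenic livers lay close together, and the WT livers were spread widely below them. The log2 fold change of HNK over WT was 4.35 ± 0.70 (SE, limma adjusted p = 0.0105), and it lost its call without WT 3. Arntl had 5.80, 4.71 and 6.21 in HNK livers and 6.07, 6.09 and 5.86 in MUP livers, against 9.30, 7.79 and 8.88 in WT livers. Its log2 fold change of -3.08 ± 0.42 held its call without each array in turn.

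Per3, a repressor of the loop, had 8.23, 8.65 and 8.34 in HNK livers and 8.79, 8.83 and 8.82 in MUP livers, against 5.38, 6.66 and 6.08 in WT livers, a log2 fold change of 2.36 ± 0.29 (limma adjusted p = 0.00224) that also held without each array. Nr1d1, which encodes the repressor REV-ERB-alpha, was higher by 1.5 ± 0.25, a call lost without WT 1 or WT 3. Ciart, a further repressor, had 6.75, 8.42 and 6.67 in HNK livers and 8.53, 8.73 and 8.91 in MUP livers, against 3.21, 5.64 and 4.92 in WT livers. At least 2 WT arrays were at or below the negative controls, so Ciart was at least 4.27-fold higher in HNK livers, and its call was lost without any of 6 arrays, HNK 3 among them. Npas2 was at least 2.42-fold lower in HNK livers, of which 2 were at or below the controls, and lost its call without HNK 2, HNK 3, WT 1 or WT 3. Usp2, Per2 and Tef were called higher in MUP livers but not in HNK livers, where their log2 fold changes over WT were 2.33, 0.99 and 0.83. No source used here gives the hour at which the livers were taken.

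The promoters of Ciart and Per3 are shown because they hold the 2 kinds of clock element. E-boxes (CACGTG, which reads the same on both strands) and D-boxes (TTATGTAA, searched on both strands) are in capitals, in the 250 bases before the start in RefSeq (GRCm38.p6), 5′ to 3′ on the gene's strand.
Ciart, chr3:95882229-95882478, minus strand: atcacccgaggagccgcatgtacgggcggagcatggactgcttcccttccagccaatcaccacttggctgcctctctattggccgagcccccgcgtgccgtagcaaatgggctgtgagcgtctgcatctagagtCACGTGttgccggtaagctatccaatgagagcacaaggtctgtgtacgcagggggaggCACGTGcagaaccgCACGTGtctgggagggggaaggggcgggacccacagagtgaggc
Per3, chr4:151044666-151044915, minus strand: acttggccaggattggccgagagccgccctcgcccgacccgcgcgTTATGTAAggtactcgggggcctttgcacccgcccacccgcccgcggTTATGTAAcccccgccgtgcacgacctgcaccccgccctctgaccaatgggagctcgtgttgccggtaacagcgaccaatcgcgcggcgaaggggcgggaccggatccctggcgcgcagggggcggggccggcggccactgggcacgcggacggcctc
The Ciart window held 3 E-boxes and the Per3 window 2 D-boxes. Over all 32851 RefSeq windows of this length, 6.02% held an E-box and 0.819% a D-box. Of the 14 clock output genes measured, 11 matched 13 windows, of which 5 held an E-box and 1 a D-box. The windows of Dbp and Nr1d1, the other called genes of this list, held neither element. A match describes these letters and does not show that a factor was bound.

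**Figure D3:**
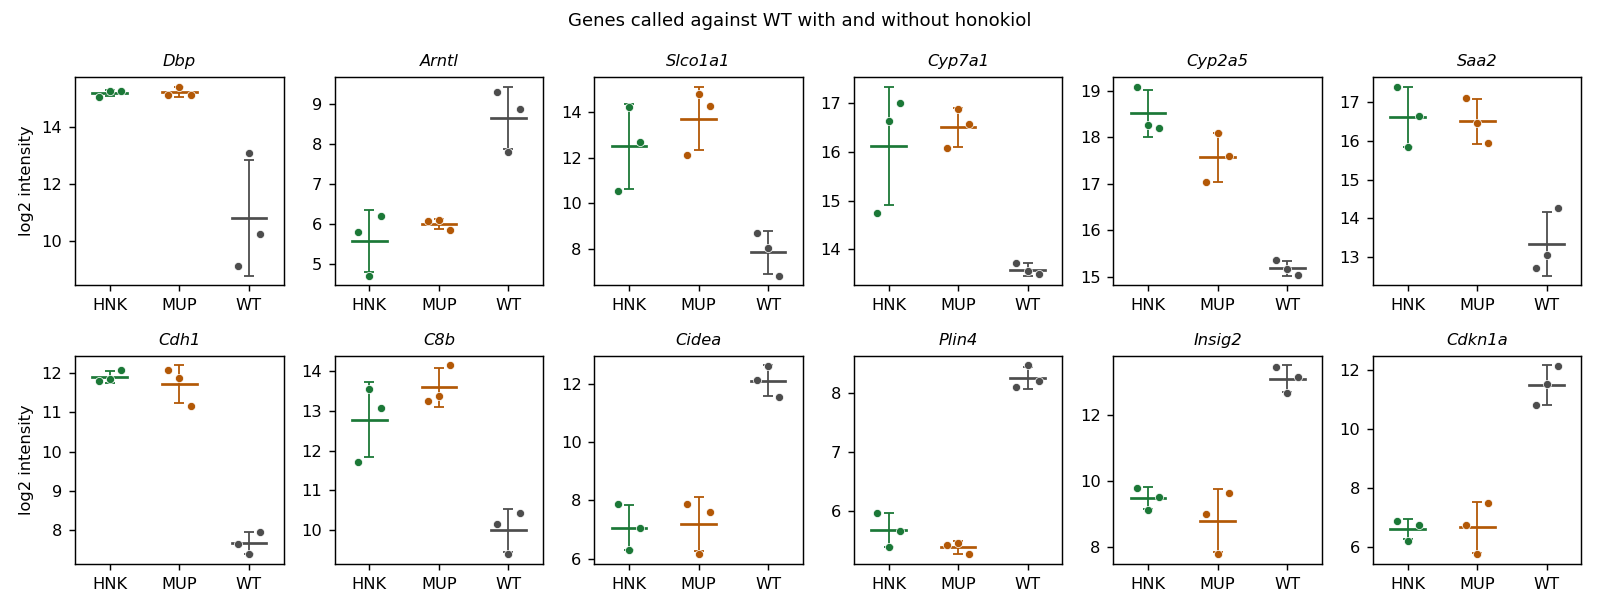
Log2 intensity of 12 genes on the 3 HNK, 3 MUP and 3 WT arrays (points), with the mean (line) and SD (bar) of each group. Each gene was called against WT in HNK and in MUP livers, and in each panel the HNK and WT arrays do not overlap.

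Of 23 male-biased liver genes, 7 were higher in HNK livers and 0 lower, with a median log2 fold change of 1.13, and 9 were higher in MUP livers. Without HNK 3 the count was 3, without HNK 2 or WT 2 it was 4, without WT 1 or WT 3 it was 2, and the median without HNK 3 was 0.83. Slco1a1, which encodes an organic anion transporter, had 10.56, 14.24 and 12.69 in HNK livers and 12.13, 14.77 and 14.25 in MUP livers, against 8.70, 8.06 and 6.84 in WT livers. The HNK livers were widely spread but did not overlap with the WT livers. Its log2 fold change was 4.63 ± 0.86 (limma adjusted p = 0.0182) and 4.53 without HNK 3, where it was no longer called, nor was it without any WT array. Cyp4a12b, a fatty acid hydroxylase, was tighter, with 13.75, 13.88 and 14.03 in HNK livers against 9.53, 10.30 and 10.92 in WT livers, and its log2 fold change of 3.64 ± 0.30 held without each array. Cyp2d9, a steroid hydroxylase picked after its values were seen, was higher by 1.67 ± 0.18 and also held its call. Cyp4a12a, the neighbor of Cyp4a12b, was not called in HNK livers, with a log2 fold change of 1.13 (limma adjusted p = 0.145). How far the probes of these 2 genes share signal was not tested. Obp2a, an odorant-binding lipocalin, was higher by 4.30 ± 0.82 and lost its call without HNK 2, HNK 3, WT 1 or WT 3. Gstp1, a glutathione transferase, was higher by 1.70 ± 0.36 and lost its call without any HNK or WT array.

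Of 23 female-biased liver genes, 1 was higher and 2 were lower in HNK livers. Cyp2a4, a steroid hydroxylase, had 16.15, 14.31 and 14.10 in HNK livers and 13.48, 14.14 and 14.48 in MUP livers, against 11.08, 11.35 and 11.15 in WT livers. Its near-identical neighbor Cyp2a5, a coumarin hydroxylase, had 19.09, 18.26 and 18.19 in HNK livers and 17.04, 18.09 and 17.59 in MUP livers, against 15.36, 15.16 and 15.04 in WT livers. The log2 fold changes of HNK over WT were 3.66 ± 0.44 and 3.33 ± 0.28 and held without each array, but probes of so similar genes can share signal. For Cyp2a5 the HNK livers also lay above the MUP livers, by 0.94 on the log2 scale (95% interval 0.33 to 1.55, limma unadjusted p = 0.00552, adjusted p = 0.998). Slc22a27, an organic anion transporter, fell by 2.99 on the log2 scale in HNK livers, a call lost without WT 1. Acot4, an acyl-CoA thioesterase, fell by 1.23 and was not called without HNK 2, HNK 3 or any WT array.

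Among 24 drug metabolism genes, 2 were higher and 1 was lower. Cyp1a2, the caffeine-metabolizing cytochrome, had 15.54, 16.14 and 15.92 in HNK livers and 15.07, 16.01 and 14.81 in MUP livers, against 13.52, 13.13 and 13.22 in WT livers, a log2 fold change of 2.58 ± 0.28 that held without each array. Abcb1a, a drug efflux pump, was higher by 1.55 ± 0.33 and was not called in MUP livers (limma adjusted p = 0.117), and its call in HNK livers was lost without HNK 1, HNK 3, MUP 3 or any WT array. Cyp2c55 fell by 1.18 and was called only with each of 7 arrays present, HNK 3 among them. Further large differences stood outside the lists. Sult2a7, a sulfotransferase, had 6.41, 10.60 and 8.64 in HNK livers, against 4.26, 3.63 and 4.26 in WT livers, all at or below the negative controls, and was at least 11.8-fold higher. It lost its call without any WT array. Cyp2c54 was higher by 3.2 ± 0.57, a call lost without HNK 3, WT 1 or WT 3. Upp2, a uridine phosphorylase, had 14.88, 16.59 and 15.37 in HNK livers, against 9.34, 12.88 and 11.70 in WT livers, and its log2 fold change of 4.31 ± 0.70 held without each array.

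Of 23 bile acid genes, 2 were higher and 1 lower. Cyp7a1, the rate-limiting enzyme of bile acid synthesis, had 14.74, 16.64 and 17.01 in HNK livers and 16.08, 16.88 and 16.57 in MUP livers, against 13.72, 13.54 and 13.48 in WT livers. HNK 1 was the lowest of the transgenic livers and still above every WT liver, and the log2 fold change of 2.55 ± 0.45 lost its call without HNK 2 or any WT array. Akr1d1, which reduces the sterol ring, was higher by 1.23 ± 0.21, a call lost without WT 1 or WT 3. Baat, which conjugates bile acids, fell by 0.94, a call lost without any HNK or WT array. Of 24 urea cycle and amino acid catabolism genes, 4 were higher and 0 lower (2 higher without HNK 3, 1 without WT 1 or WT 3). Hal, which breaks down histidine, was higher by 1.87 ± 0.25 and held its call without each array. Prodh, for proline, was higher by 1.84 ± 0.32 (not called without WT 1 or WT 3), Kyat1, for kynurenine, by 1.62 ± 0.35 (not called without HNK 3 or any WT array) and Cps1, the entry enzyme of the urea cycle, by 0.94 ± 0.22 (not called without HNK 2, HNK 3, MUP 1, MUP 3 or any WT array). Gys2, liver glycogen synthase, was the 1 of 16 glucose genes called, higher by 1.02 ± 0.20, and lost its call without any HNK array, WT 1 or WT 3.

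Of 31 complement and coagulation genes, 7 were higher and 1 was lower in HNK livers, with the same counts in MUP livers, and 2 were higher without HNK 3, WT 1 or WT 3. C8b, a subunit of the membrane attack complex, had 11.72, 13.56 and 13.07 in HNK livers and 13.26, 13.38 and 14.15 in MUP livers, against 10.16, 9.38 and 10.42 in WT livers. Its log2 fold change of 2.80 ± 0.43 and that of C2, a protease of the classical pathway, of 1.64 ± 0.24 held without each array. C1ra, which helps start that pathway, and F7, coagulation factor VII, were each higher by 1.20, and both calls were lost without HNK 3, WT 1 or WT 3, that of F7 also without WT 2. Of 27 acute-phase genes, 3 were higher and 1 was lower in HNK livers, while 9 were higher and 2 lower in MUP livers. Saa2, serum amyloid A, had 17.39, 15.84 and 16.65 in HNK livers and 17.11, 16.47 and 15.94 in MUP livers, against 12.71, 13.05 and 14.27 in WT livers, a log2 fold change of 3.29 ± 0.45 that held without each array. Saa1 was higher by 2.54 ± 0.32 but is too like Saa2 for the probes to be read apart. Orm2, an orosomucoid, was higher by 2.32 ± 0.43 (not called without HNK 3, WT 1 or WT 2), and Crp, a pentraxin, fell by 1.51 (not called without HNK 1, HNK 2 or any WT array). Serpinf2, the inhibitor of plasmin, was the 1 called of 8 plasminogen activator genes, higher by 0.99 ± 0.23 and not called without any HNK array, MUP 3 or any WT array.

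The transgenic hepatocyte was checked through Plau, the urokinase gene. It had 5.81, 4.82 and 5.70 in HNK livers and 4.96, 5.29 and 3.67 in MUP livers, against 5.52, 5.49 and 5.87 in WT livers, close to the negative controls in every group. No source used here says whether its probes read the transgene. The MUP-uPA label could thus not be checked on its own transcript.

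Cdh1, which encodes E-cadherin, had 11.79, 11.84 and 12.07 in HNK livers and 12.09, 11.88 and 11.17 in MUP livers, against 7.65, 7.40 and 7.96 in WT livers. This was the smallest adjusted p among the higher genes named here, with a log2 fold change of 4.23 ± 0.25 (limma adjusted p = 3.19e-05) that stayed between 4.09 and 4.37 when any array was left out. Of 19 oncofetal and progenitor genes, 3 were higher and 0 lower. Tff3, a trefoil peptide, was at least 2.07-fold higher, with 7.75, 5.98 and 4.39 in HNK livers against 2.93, 3.38 and 2.93 in WT livers, and lost its call without 6 of the 9 arrays. Epcam, an adhesion molecule of biliary and progenitor cells, had 5.12, 5.46 and 5.01 in HNK livers and 4.28, 4.54 and 4.70 in MUP livers, against 4.10, 4.0 and 3.68 in WT livers. All WT and MUP values were at or below the negative controls and the HNK values near them, so Epcam was at least 1.16-fold higher. Anxa13, an epithelial annexin, had 11.13, 7.26 and 8.96 in HNK livers and 6.66, 8.31 and 8.90 in MUP livers, against 5.5, 5.71 and 5.61 in WT livers. Its log2 fold change of 3.51 ± 0.78 was not called without HNK 1, HNK 3 or any WT array, and its lowest value among these fits was 2.5. Epcam lost its call without WT 3. These 2 genes were the called members of 11 cholangiocyte markers.

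Igfbp2, a carrier of insulin-like growth factors, was higher by 2.39 ± 0.35 and held its call without each array. Igfbp1, a second carrier, had 8.11, 7.52 and 6.56 in HNK livers and 9.35, 6.28 and 9.40 in MUP livers, against 9.80, 10.90 and 11.28 in WT livers. It fell by 3.26 on the log2 scale in HNK livers (limma adjusted p = 0.0402) but was not called in MUP livers (adjusted p = 0.116), and lost its call without any HNK or WT array. Insr, the insulin receptor, was higher by 0.86 ± 0.19 and lost its call without any HNK or WT array too. Slc2a5, the fructose transporter GLUT5, had 9.17, 9.28 and 8.79 in HNK livers, against 6.14, 6.50 and 6.25 in WT livers, a log2 fold change of 2.78 ± 0.25. Gvin1, a large interferon-inducible GTPase, was higher by 4.23 ± 0.48, and both calls held without each array. Gldn, gliomedin, was at least 3.05-fold higher and Clec2h, a C-type lectin, at least 4.29-fold, with Clec2h not called without HNK 3 or WT 3. Socs2, a feedback inhibitor of growth hormone signaling picked after its values were seen, had 7.99, 8.41 and 8.90 in HNK livers and 9.15, 10.09 and 11.02 in MUP livers, against 7.64, 7.56 and 7.64 in WT livers. It was called in MUP livers (log2 fold change 2.47) and not in HNK livers (0.82 ± 0.39), with a difference of HNK from MUP livers of -1.66 (95% interval -2.51 to -0.80, limma adjusted p = 0.914).

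Of 24 lipid droplet genes, 0 were higher and 8 were lower in HNK livers, with a median log2 fold change of -0.91, and 9 were lower in MUP livers. The count was 4 without HNK 3, WT 1 or WT 3, and 5 without HNK 2 or WT 2. Cidea, which enlarges droplets, had 7.87, 6.31 and 7.04 in HNK livers and 7.88, 6.15 and 7.59 in MUP livers, against 12.12, 12.61 and 11.55 in WT livers. It fell by 5.02 ± 0.48 in HNK livers (limma adjusted p = 0.000473), the largest fall among the genes named here, and the HNK and MUP livers overlapped. Plin4, a perilipin, had 5.97, 5.39 and 5.66 in HNK livers and 5.42, 5.46 and 5.26 in MUP livers, against 8.10, 8.46 and 8.19 in WT livers, a fall by 2.58 ± 0.23. Plin5, which ties droplets to mitochondria, fell by 1.82 ± 0.26, and all 3 calls held without each array. Plin2, another perilipin, had 15.57, 14.64 and 14.77 in HNK livers, against 16.65, 16.67 and 16.40 in WT livers. Its fall by 1.58 ± 0.32 lost its call without HNK 2, HNK 3 or any WT array. Fitm1, Mgll, Cd36 and Pparg were the other called members, named after their values were seen, with falls between 1.11 and 1.44, of which Fitm1 alone was called without HNK 3.

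Of 27 PPAR-alpha target genes, 0 were higher and 7 lower in HNK livers with a median log2 fold change of -0.83, and 26 of 27 had a negative sign. Without HNK 3 or WT 2 the count of lower genes was 1, without WT 1 or WT 3 it was 2, and the median without HNK 3 was -0.74. Cyp4a14, a fatty acid hydroxylase, had 15.63, 16.76 and 14.09 in HNK livers and 16.38, 17.13 and 15.81 in MUP livers, against 17.38, 18.58 and 17.89 in WT livers. HNK 3 was the lowest. Cyp4a14 fell by 2.46 ± 0.56 and lost its call without HNK 1, HNK 3, MUP 1, MUP 3 or any WT array. Acot2, a mitochondrial thioesterase, had 8.85, 8.48 and 8.53 in HNK livers, against 10.15, 11.08 and 10.07 in WT livers, and its fall by 1.81 ± 0.30 held without each array. Acaa1b, a peroxisomal thiolase, fell by 1.60 ± 0.30 and was not called without HNK 3 or any WT array. Insig2, which holds the sterol sensor in the endoplasmic reticulum, was the 1 called of 17 sterol genes. It had 9.80, 9.14 and 9.53 in HNK livers and 9.0, 7.78 and 9.65 in MUP livers, against 13.48, 12.68 and 13.18 in WT livers, a fall by 3.62 ± 0.40 that held without each array. None of 15 fatty acid synthesis genes was called by limma (1 higher and 5 lower at an unadjusted p under 0.05), and Me1, malic enzyme, came nearest, with a log2 fold change of -1.35 ± 0.34 (adjusted p = 0.0646).

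Cdkn1a, the gene of p21, an inhibitor of the cell cycle, had 6.86, 6.2 and 6.72 in HNK livers and 6.74, 5.73 and 7.47 in MUP livers, against 10.79, 11.52 and 12.13 in WT livers. It fell by 4.89 ± 0.43 (limma adjusted p = 0.000264) and held its call without each array. It was 1 of 2 lower among 18 p53 target genes, of which the other 16 were not called, and Trp53inp1 fell by 1.29 ± 0.29, a call lost without HNK 1, HNK 3, MUP 1 or any WT array. Of 20 immediate early genes, 3 were lower and 0 higher. Jun had 7.41, 6.88 and 6.88 in HNK livers, against 9.18, 9.44 and 8.87 in WT livers, and its fall by 2.11 ± 0.24 held without each array. Dusp1, a MAP kinase phosphatase, fell by 1.99 ± 0.36 and Klf6 by 1.64 ± 0.37, with Dusp1 not called without HNK 2, HNK 3, WT 1 or WT 2, and Klf6 not called without 7 of the 9 arrays. Tubb2a, a tubulin, fell by 4.18 ± 0.64, Tsc22d1 by 2.57 ± 0.34, Mest by 2.80 ± 0.30 and Mtnr1a, a melatonin receptor, fell by 2.60 ± 0.27, and these calls held without each array. Chka, choline kinase, was at least 6.01-fold lower, a call lost without WT 3. None of 22 proliferation genes was called by limma (0 higher and 2 lower at an unadjusted p under 0.05), and Mcm2 and Top2a had log2 fold changes of -0.96 and 0.78.

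Of 27 unfolded protein response genes, 3 were lower and 0 higher in HNK livers than in WT livers, against 0 lower and 1 higher in MUP livers, and the medians were -0.30 and 0.08. Creld2, a secreted chaperone partner, had 7.72, 8.61 and 7.41 in HNK livers and 9.50, 9.90 and 10.47 in MUP livers, against 9.67, 9.33 and 10.62 in WT livers. The HNK livers lay below both other groups, which overlapped. Creld2 fell by 1.96 ± 0.39 in HNK over WT (limma adjusted p = 0.0244), and the difference of HNK from MUP livers was -2.04 (95% interval -2.89 to -1.19, unadjusted p = 0.000213, adjusted p = 0.527). Without HNK 3 its log2 fold change over WT was -1.71 and not called, nor was it without HNK 1, WT 1 or WT 3. Hspa5, which encodes BiP, had 16.54, 17.13 and 16.76 in HNK livers and 17.30, 17.55 and 17.57 in MUP livers, against 17.85, 17.79 and 18.21 in WT livers. The groups lay in steps without overlap, with a fall by 1.14 ± 0.18 from WT (limma adjusted p = 0.0103) that was kept without HNK 3 and lost without WT 3. The difference of HNK from MUP livers was -0.67 (95% interval -1.07 to -0.27, adjusted p = 0.998).

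Dnajc3, an inhibitor of the stress kinase PERK, fell by 1.0 ± 0.22 in HNK livers and by 0.73 in MUP livers, the second not called, and its call in HNK livers was lost without HNK 1, HNK 3 or any WT array. Of the whole list, 23 of 27 genes were lower in HNK than in MUP livers and 8 had HNK arrays below every MUP array, without a call. Over all 19572 probe sets with a symbol, 1678 had HNK and MUP arrays apart in either direction. The median log2 fold change of HNK over MUP was -0.01 there. Leaving out single arrays gave 0 to 4 lower genes, with 1 without HNK 1, HNK 3 or WT 1 and 0 without WT 3. Among 12 heat shock genes, 2 were lower in HNK livers, and both were also lower in MUP livers. Hsp90aa1, a cytosolic chaperone, had 13.52, 13.52 and 13.65 in HNK livers and 14.06, 13.75 and 14.22 in MUP livers, against 15.43, 15.27 and 15.44 in WT livers. It fell by 1.82 ± 0.17 (limma adjusted p = 0.000366) and held its call without each array. Hspb1, a small heat shock protein, fell by 1.81 ± 0.29, a call lost without WT 1. Stip1, which links the HSP70 and HSP90 chaperones, fell by 1.04 ± 0.20 in HNK livers but was at -0.49 and not called in MUP livers, and its call was lost without HNK 1, HNK 3, WT 1 or WT 3.

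The promoters of Hspa5, Creld2 and Dnajc3, the 3 called unfolded protein response genes, are shown because each holds an endoplasmic reticulum stress response element, CCAAT and CCACG separated by 9 bases. The element is in capitals, on either strand, in the 250 bases before the start in RefSeq (GRCm38.p6), 5′ to 3′ on the gene's strand.
Hspa5, chr2:34771840-34772089, plus strand: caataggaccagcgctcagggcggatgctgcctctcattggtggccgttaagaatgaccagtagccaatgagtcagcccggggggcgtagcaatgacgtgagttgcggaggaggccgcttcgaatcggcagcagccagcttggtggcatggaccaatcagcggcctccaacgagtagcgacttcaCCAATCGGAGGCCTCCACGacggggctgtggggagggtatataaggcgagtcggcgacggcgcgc
Creld2, chr15:88819396-88819645, plus strand: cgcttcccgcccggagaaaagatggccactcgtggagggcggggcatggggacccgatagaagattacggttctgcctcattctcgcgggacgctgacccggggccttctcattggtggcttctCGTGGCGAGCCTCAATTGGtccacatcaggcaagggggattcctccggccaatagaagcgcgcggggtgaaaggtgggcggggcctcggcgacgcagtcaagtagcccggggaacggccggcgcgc
Dnajc3, chr14:118937682-118937931, plus strand: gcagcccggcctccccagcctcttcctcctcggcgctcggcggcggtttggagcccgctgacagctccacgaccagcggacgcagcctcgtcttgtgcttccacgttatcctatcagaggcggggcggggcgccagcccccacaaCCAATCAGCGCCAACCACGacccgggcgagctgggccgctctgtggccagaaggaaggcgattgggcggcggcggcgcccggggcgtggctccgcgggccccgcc
In Creld2 the element reads on the opposite strand. It was found in 9 of 26 windows of this list and in 0.113% of all windows. Hsp90b1, Calr, Canx, Pdia6, Syvn1 and Derl3 held it too and were not called, with log2 fold changes of HNK over WT of -0.03, -0.47, 0.46, -0.08, -1.08 and 0.25, so the element did not go with a call in each gene that held it.

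**Figure D4:**
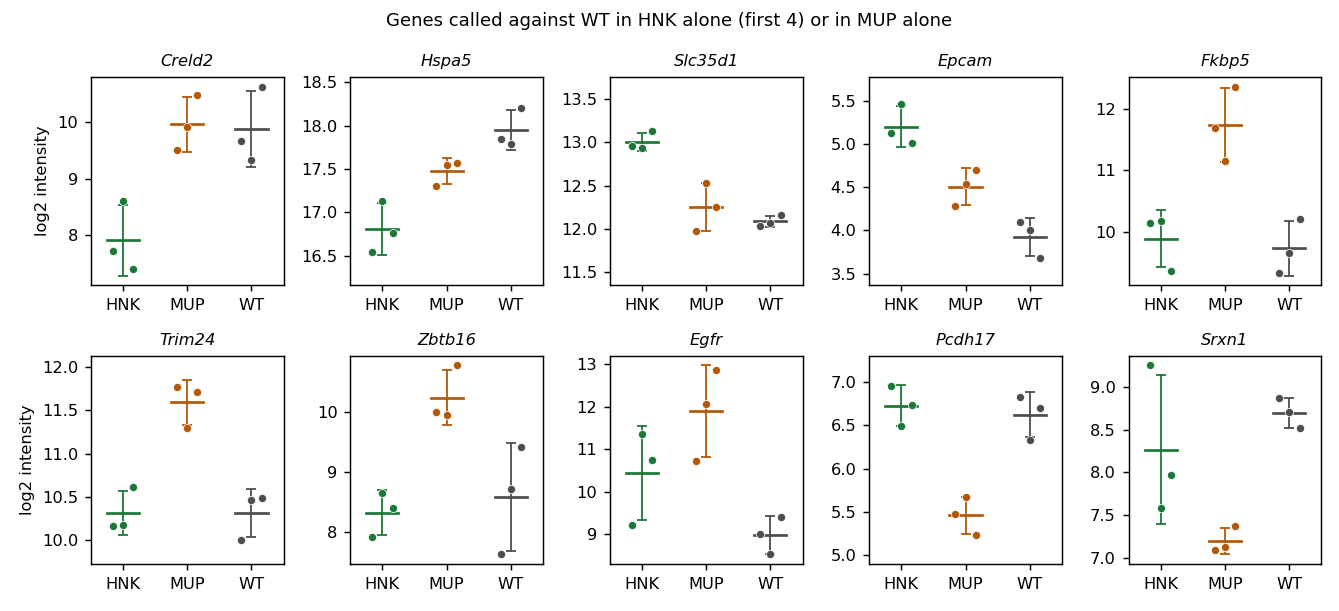
Log2 intensity of 10 genes on the 3 HNK, 3 MUP and 3 WT arrays (points), with the mean (line) and SD (bar) of each group. Creld2, Hspa5, Slc35d1 and Epcam were called against WT in HNK but not in MUP livers, and the other 6 in MUP but not in HNK livers, while none was called between HNK and MUP livers.

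Other genes called in HNK livers lay near wild type in MUP livers, with log2 fold changes under 0.5 there. This held for 5 of the 46 higher and 7 of the 62 lower genes. Slc35d1, a sugar nucleotide transporter of the endoplasmic reticulum, had 12.96, 12.94 and 13.13 in HNK livers and 11.98, 12.53 and 12.25 in MUP livers, against 12.04, 12.07 and 12.16 in WT livers. Its log2 fold change of 0.92 ± 0.18 was the most precise of the higher ones, and the difference of HNK from MUP livers was 0.76 (95% interval 0.36 to 1.15, limma adjusted p = 0.966). Trim12c was higher by 1.29 ± 0.28, Phldb2 by 0.94 ± 0.22, Fkbp15 by 0.92 ± 0.20 and Syne1, a nuclear envelope protein, by 0.85 ± 0.19. Among the lower ones, Insc fell by 1.17 ± 0.26 and Mis12, a kinetochore protein, by 0.99 ± 0.23, while Vmn1r219 was near or below the negative controls in every group. None of these 8 genes kept its call when any HNK or WT array was left out. Without HNK 3, the log2 fold change was 0.86 for Slc35d1, 1.23 for Trim12c, -1.33 for Insc and -1.13 for Mis12.

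Fkbp5 was called in MUP livers but not in HNK livers. It encodes FKBP51, a co-chaperone of the glucocorticoid receptor that is itself induced by glucocorticoids. Fkbp5 had 10.14, 10.17 and 9.36 in HNK livers and 11.69, 11.15 and 12.36 in MUP livers, against 9.33, 9.66 and 10.21 in WT livers. The HNK and WT livers overlapped and the MUP livers lay above both. The log2 fold change of HNK over WT was 0.16 ± 0.34 (limma adjusted p = 0.901, exact permutation p = 0.9, two-sided) and that of MUP over WT was 2.0 (limma adjusted p = 0.00842). The difference of HNK from MUP livers was -1.85 on the log2 scale (95% interval -2.59 to -1.11, limma unadjusted p = 0.000156, adjusted p = 0.527). Zbtb16, a further glucocorticoid-induced gene, which encodes a zinc finger repressor, had 7.91, 8.65 and 8.39 in HNK livers and 10, 9.95 and 10.78 in MUP livers, against 7.62, 8.71 and 9.42 in WT livers. Of 20 glucocorticoid-induced genes, 0 were higher and 1 was lower in HNK livers, while 2 were higher and 1 was lower in MUP livers, with medians of -0.02 and 0.34. Nr3c1, the receptor itself, had a log2 fold change of 0.16 ± 0.29 in HNK over WT (limma adjusted p = 0.87, exact permutation p = 0.4).

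Trim24, a co-regulator of nuclear receptors, had 10.16, 10.18 and 10.61 in HNK livers and 11.77, 11.29 and 11.71 in MUP livers, against 10, 10.46 and 10.49 in WT livers. Its difference of HNK from MUP livers was -1.27 (95% interval -1.76 to -0.78, limma adjusted p = 0.527). The rule by which the genes of this paragraph were named favors such a gap. Slc22a26, Atp2a2, a calcium pump of the endoplasmic reticulum, and Reps2 followed, with log2 fold changes of 0.42, 0.28 and 0.39 in HNK livers and 1.55, 1.16 and 1.06 in MUP livers. Within its groups Atp2a2 was highest on the arrays with muscle transcripts. It had 12.76 on HNK 3 against 11.82 and 12.19, and 13.40 on MUP 2 against 12.99 and 13.01. Without HNK 3 its log2 fold change of HNK over WT was 0.03. In the other direction, Pcdh17, a protocadherin, had 6.96, 6.49 and 6.73 in HNK livers and 5.48, 5.67 and 5.24 in MUP livers, against 6.83, 6.33 and 6.70 in WT livers. The HNK and WT livers overlapped, with a log2 fold change of 0.11 ± 0.24, and above the MUP livers by 1.27 (95% interval 0.75 to 1.78, limma adjusted p = 0.527). Srxn1, H4c3, Entpd5, Pgd and Nectin1 had log2 fold changes over WT of -0.44, -0.30, -0.42, -0.41 and -0.46 in HNK livers, and of -1.5, -1.19, -1.17, -1.15 and -1.10 in MUP livers, where they were called.

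Srxn1, sulfiredoxin, and Pgd, of the pentose phosphate pathway, belong to the genes driven by NRF2, the regulator of antioxidant defense. Of 22 NRF2 target genes, 0 were called by limma in HNK livers (1 higher and 4 lower at an unadjusted p under 0.05) and 8 were lower in MUP livers, with medians of -0.27 and -0.90. HNK 1 differed from the other HNK livers here: Gstm3, a glutathione transferase, had 16.63, 12.52 and 14.22 in HNK livers and 13.48, 11.85 and 13.46 in MUP livers, against 16.23, 15.82 and 16.18 in WT livers. Without HNK 1, 5 of the 22 were lower in HNK livers than in WT livers.

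Egfr, the epidermal growth factor receptor, had 9.22, 11.37 and 10.75 in HNK livers and 10.73, 12.08 and 12.87 in MUP livers, against 9.02, 8.53 and 9.42 in WT livers. HNK 1 lay within the WT range and the other HNK livers above it. The log2 fold change of HNK over WT was 1.45 ± 0.57 (limma adjusted p = 0.252, exact permutation p = 0.2), and that of MUP over WT was 2.90 (limma adjusted p = 0.0169). The difference of HNK from MUP livers was -1.45 (95% interval -2.68 to -0.21, limma adjusted p = 0.998). Errfi1, a feedback inhibitor of the receptor, had 16.47, 17.32 and 17.38 in HNK livers, against 15.03, 17.36 and 17.20 in WT livers, which overlapped (exact permutation p = 0.6, limma adjusted p = 0.724). With 3 livers per group the exact test cannot give a p below 0.1. Of 20 genes for the receptor family, its ligands and adaptors, 0 were called by limma in HNK livers (4 higher and 1 lower at an unadjusted p under 0.05) and 2 were higher in MUP livers, Egfr and the ligand gene Nrg4, which had log2 fold changes of 0.56 in HNK and 1.65 in MUP over WT. Nrg1, another ligand gene, had -0.88 ± 0.31 in HNK livers.

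Of 19 markers of sinusoidal endothelial cells, 7 were lower and 0 higher in HNK livers, with a median log2 fold change of -1.0, while 2 were lower in MUP livers with a median of -0.83. The HNK arrays lay below every WT array for 14 of the 19, and the MUP arrays for 8. Over all 19572 probe sets with a symbol, 4067 had HNK and WT arrays apart in either direction, and 4642 had MUP and WT arrays apart. Fcgr2b, an Fc receptor of these cells, had 11.50, 11.05 and 11.56 in HNK livers and 12.19, 11.49 and 12.32 in MUP livers, against 13.78, 13.07 and 13.03 in WT livers, a fall by 1.92 ± 0.27 that held without each array. Ehd3 had 7.28, 6.95 and 6.95 in HNK livers and 8.85, 7.18 and 7.72 in MUP livers, against 9.32, 9.15 and 9.27 in WT livers. It fell by 2.19 ± 0.35, a call lost without WT 3. Oit3 fell by 2.41 ± 0.49 (not called without HNK 2, HNK 3 or any WT array) and Clec4g, a lectin, by 1.88 ± 0.36 (not called without HNK 2, HNK 3, WT 1 or WT 2). Cdh5, VE-cadherin, Gpr182 and Rspo3, a Wnt amplifier, were the other 3 called, named after their values were seen, with log2 fold changes of -1.70, -1.65 and -1.25, and each lost its call without HNK 2 or any WT array, among others.

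The count of lower endothelial markers was 3 without HNK 3, 2 without HNK 2 or any WT array and 7 without both HNK 3 and MUP 2. In the direct comparison 16 of the 19 were lower in HNK than in MUP livers and none was called by limma, with the largest gap for Clec4g, -0.94 (95% interval -1.72 to -0.16). The list medians were 7.99, 7.34 and 7.44 on the HNK arrays and 8.85, 7.60 and 8.25 on the MUP arrays, against 8.84, 9.16 and 9.27 on the WT arrays.

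**Figure D5:**
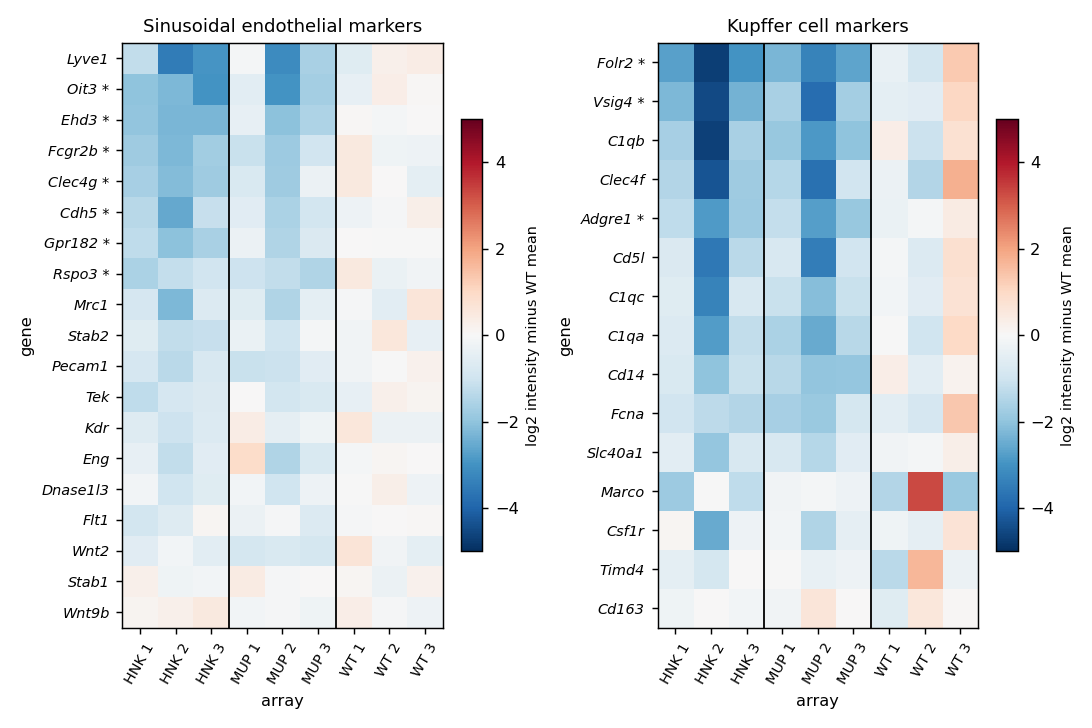
Log2 intensity minus the WT mean for 19 sinusoidal endothelial markers (left) and 15 Kupffer cell markers (right) on the HNK, MUP and WT arrays, sorted by the HNK over WT difference, with an asterisk at genes called in HNK over WT. Most HNK cells are blue in both panels, and for the Kupffer cell markers HNK 2 and MUP 2 have the lowest list medians, 7.88 and 7.77.

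Of 15 Kupffer cell markers, 3 were lower in HNK livers and 0 higher, with a median log2 fold change of -1.56, and 15 of 15 were negative. MUP livers had 3 lower and a median of -1.74, and Vsig4, called in HNK livers, was not called there (limma adjusted p = 0.0887). Folr2, a folate receptor, had 7.95, 5.95 and 7.69 in HNK livers and 8.38, 7.33 and 8.04 in MUP livers, against 10.29, 9.73 and 11.96 in WT livers, a fall by 3.46 ± 0.59 that was lost without WT 3. Vsig4, a complement receptor, had 10.69, 8.44 and 10.59 in HNK livers, against 12.47, 12.39 and 13.96 in WT livers, and Adgre1, an adhesion receptor of macrophages, had 8.96, 7.40 and 8.42 in HNK livers, against 9.92, 10.15 and 10.64 in WT livers. HNK 2 was the lowest in each of these genes. Vsig4 fell by 3.03 ± 0.68 and Adgre1 fell by 1.97 ± 0.43, and both lost their calls without HNK 2, HNK 3, MUP 3 or any WT array, that of Vsig4 also without HNK 1 or MUP 1. The count was 1 without HNK 2, HNK 3, MUP 3, WT 1 or WT 2, and 0 without WT 3.

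Mmp12, the macrophage elastase, was the 1 called of 13 markers of recruited macrophages, at 9.38, 5.51 and 8.37 in HNK livers and 7.72, 5.36 and 8.91 in MUP livers, against 12.70, 10.97 and 12.52 in WT livers. Its fall by 4.31 ± 0.98 lost its call without HNK 2, HNK 3, MUP 1 or any WT array. Wfdc17 fell by 3.65 ± 0.44, and its difference of HNK from MUP livers was -1.10 (95% interval -2.06 to -0.14, limma adjusted p = 0.998). Pltp, phospholipid transfer protein, fell by 3.28 ± 0.54 (not called without WT 3), and Spon2, a secreted matrix protein, by 3.13 ± 0.57 (not called without HNK 3, WT 1 or WT 3). Of 15 stellate cell markers, Colec11, a collectin, was the 1 called, with a fall by 1.58 ± 0.27 that was not called without WT 1 or WT 3. Among 23 collagen and matrix genes, Fn1, fibronectin, was higher by 0.90 ± 0.19 (not called without any HNK or WT array) while Mmp12 and Sparc were lower, and Sparc fell by 1.57 ± 0.32 (not called without HNK 1, HNK 2 or any WT array).

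Immune genes differed among the honokiol-treated livers themselves. Of 26 interferon-induced genes, 1 was higher in HNK livers than in WT livers, Bst2, which tethers virus particles. It had 11.83, 11.21 and 11.46 in HNK livers and 10.63, 11.03 and 11.55 in MUP livers, against 10.19, 9.84 and 10.17 in WT livers, a log2 fold change of 1.44 ± 0.26 that was lost without HNK 1 or any WT array. Without HNK 2, 9 of the 26 were higher, and several genes were high on HNK 1 and HNK 3 but not on HNK 2. The following genes were picked after their values were seen. Cxcl9, a T cell chemokine, had 15.98, 10.72 and 15.19 in HNK livers and 12.08, 11.73 and 12.94 in MUP livers, against 12.71, 10.38 and 11.62 in WT livers. Igtp, a GTPase, had 12.38, 9.95 and 12.95 in HNK livers and 11.16, 10.26 and 9.97 in MUP livers, against 10.20, 8.17 and 8.97 in WT livers. HNK 1 and HNK 3 exceeded every MUP and WT liver in both genes while HNK 2 did not.

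The 16 antigen presentation genes showed the same split, with list medians of 12.86, 9.23 and 12.61 on HNK 1, HNK 2 and HNK 3. Replicate 2 was also the lowest in the other groups, by smaller margins. The medians there were 11.03, 10.5 and 10.92 on the MUP arrays and 11.59, 9.98 and 10.33 on the WT arrays. H2-Aa, an MHC class II chain, had 15.10, 10.01 and 14.53 in HNK livers and 12.86, 12.04 and 13.25 in MUP livers, against 13.89, 11.58 and 12.39 in WT livers. None of the list was called by limma with every array (5 higher and 0 lower at an unadjusted p under 0.05), and 3 were higher without HNK 2. Tap1, a peptide transporter, had a log2 fold change of 1.5 ± 0.45 (adjusted p = 0.121), and H2-Eb1, another class II chain, had 1.28 ± 0.91. Of 14 T and NK cell markers, Cd4 was the 1 called, with 7.14, 7.38 and 7.68 in HNK livers and 6.39, 6.84 and 6.99 in MUP livers, against 5.76, 6.39 and 5.37 in WT livers. Its log2 fold change of 1.56 ± 0.29 was 1.42 and not called without HNK 3, nor was it called without WT 1 or WT 3. A positive sign was seen in 14 of the 14 markers, of which 2 reached an unadjusted limma p under 0.05. Their median log2 fold change was 0.63, and 0.39 without HNK 3. The list medians overlapped, with 5.92, 5.52 and 6.45 on the HNK arrays against 5.84, 4.96 and 5.11 on the WT arrays. No marker of B and plasma cells, neutrophils, red cells, adipocytes, smooth muscle or pancreas was called by limma, while 2 were higher and 2 lower at an unadjusted p under 0.05.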

How the data were processed

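Liver RNA of 9 mice was hybridized to Affymetrix Clariom S arrays, 3 per group. The authors deposited normalized intensity values on a linear scale. Their processing notes name RMA and Affymetrix Expression Console, and no source used here gives their versions. Each deposited value was put on the log2 scale. The table held 28846 rows. After 6640 rows of control probes were set aside, the remaining 22206 probe sets entered the test, of which 19572 had 1 gene symbol in the platform annotation. All 9 arrays entered a single limma 3.58.1 model (R 4.3.3) of 3 group means with a variance trend, with 6 residual and 5.83 prior degrees of freedom and no covariate. Two-sided p-values were corrected by Benjamini-Hochberg over all tested probe sets, and a call means an adjusted p under 0.05. Errors after ± are standard errors of the log2 fold change. The number of arrays limits the precision.

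Where 2 or more arrays of a group did not exceed their own array's negative-control median (4.91 to 5.10 on the log2 scale), the difference is given as a bound, with the dimmer arrays raised to that median. Lists used 1 probe set per gene, that with the highest mean over all arrays. Genes named were the 12 largest changes in each direction, the next 6 of those called in both comparisons, up to 6 each of those called in only HNK or only MUP livers with a log2 fold change under 0.5 in the other, up to 4 called members per list, and the followed genes. Members and lists were chosen with earlier results of these data known. RMA fits probe sets across arrays together, so probes shared by similar genes are not separated. The design text counts 6 mice, while 9 samples are deposited, and the groups follow the sample labels. Nothing in the labels says that replicate numbers pair the mice. The limma p-values set a difference of group means against a variance pooled over the 3 groups and moderated along the trend. The MUP arrays, MUP 2 among them, thus enter the variance used for HNK against WT. The test scripts were tested on simulated data. Alternatives were other normalizations, filters and variance models, array weights, a replicate block, the methods' t-test, a 2-fold threshold, and the omission of each array or of both HNK 3 and MUP 2. Promoter windows came from RefSeq tables (GRCm38.p6) and carry no measurement.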

Additional observations from a re-analysis of the deposited data

How the results depend on the processing

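Of 112 named genes called in HNK over WT, 0 changed direction, 79 lost the call when some single array was left out, 57 of them without HNK 3, and 33 kept it in every alternative other than the methods' t-test and the 2-fold threshold. Leaving out single arrays gave 45 to 219 probe sets higher and 59 to 307 lower in HNK than in WT, 37 to 127 higher and 50 to 171 lower in both comparisons, 6 to 92 higher and 9 to 146 lower in HNK but not in MUP, and 143 to 624 in MUP but not in HNK. Without both HNK 3 and MUP 2, 96 were higher in both. With weights per array, 70 were higher and 115 lower in HNK but not in MUP. After adjustment the methods' t-test called 0 in each of these 7 counts. Without adjustment it gave 1133 higher and 1381 lower in HNK, 580 higher and 762 lower in both, 553 higher and 619 lower in HNK but not in MUP, and 1566 in MUP but not in HNK. In HNK against MUP, limma called 1 probe set without WT 2. The causes of these changes were not tested.

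With the replicate number as a block, the 7 counts were 210, 326, 155, 253, 55, 73 and 382, and 103 of the 112 named genes kept their call. The Kupffer cell list then had 8 lower and the interferon list 6 higher. Same-numbered HNK and WT arrays deviated together only weakly (r = 0.03, 0.13 and 0.05 across probe sets, which are not independent). A correlation over all probe sets can miss a difference confined to some genes. Whether same-numbered samples shared anything beyond the number was not tested.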
